A study of Mus musculus with 6 samples.

Results

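The cell cycle and DNA replication genes were followed in mouse P19 cells as they were driven towards neurons. The set comprises 40 genes listed by symbol, in 3 groups by role: 13 G1 cyclins, cyclin-dependent kinases, inhibitors and E2F and Rb genes, 11 replication genes and 16 genes of G2 and mitosis. The genes were listed by name and not by a cut on measured values, but earlier results of these data were known when they were chosen. Of the 40 genes, 39 were measured, among 13381 genes tested in all. Ccnd1 had no matching probe and is not analysed here. All 39 passed the filter on dim probes, and their chosen probes were well above background on all 6 arrays.

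P19 cells come from a mouse teratocarcinoma, resemble early embryonic stem cells and turn into neurons when they are aggregated in retinoic acid. One line, AICD/P19, expresses AICD, the intracellular domain that is cut from the amyloid precursor protein, and the control line, pCDNA/P19, carries the empty vector. Both were sampled undifferentiated (in growth medium with serum, without retinoic acid), aggregated (4 days as aggregates in 5e-07 M all-trans retinoic acid) and differentiated (replated onto dishes for another 2 days). There was 1 Agilent array per line and state, 6 in all, with no replicate of any line and state. Neither the promoter that drives AICD nor the number of clones behind each line is given in the sources used here. The undifferentiated pair lay on 1 slide and the other 4 arrays on a second slide, so the aggregation step and the whole course cannot be told apart from the slide. The replating step and every difference between the lines within a state were measured within a slide.

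Cells enter the cycle through D-type cyclins with Cdk4 and Cdk6, which phosphorylate Rb and release E2F factors. Cyclin E with Cdk2 then starts S phase, for which Cdc6 and Cdt1 load the MCM helicase onto origins. Genes of G2 and mitosis are switched on later, by Mybl2 and Foxm1, through promoters that often hold a CCAAT box and a cell cycle homology region (CHR). Pluripotent stem cells are known for a short G1 phase with high cyclin E, and neurons leave the cycle for good.

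The promoters of the 3 groups were searched for 3 motif strings, and each string was found in every group at a different frequency, which was not tested. RefSeq promoter windows of GRCm38.p6, from 250 bases before to 50 after a start site, were found for 32 of the 40 genes, some with more than 1 start. They were not found for Aurkb, Ccna2, Ccnd1, Ccnd2, Ccne2, Foxm1, Mcm4 and Rb1. Both strands were searched for an E2F element (TTTCCCGC, TTTCGCGC, TTTGCCGC or TTTGGCGC), for the CHR (TTTGAA or TTCGAA) and for the CCAAT box (CCAAT). None of these strings contains another, but E2F elements on opposite strands can overlap. An E2F element stood in 6 of 11 replication windows (Cdc6, Cdt1, Mcm3, Mcm5, Mcm6 and Mcm7), in 1 of 13 mitosis windows (Cdk1), in 2 of 12 G1 windows (Cdk2 and E2f2) and in 2.26% of all 32851 windows. The CHR stood in 10 of 13 mitosis windows, 2 of 11 replication windows and 1 of 12 G1 windows, against 19.2% of all windows. A CCAAT box stood in 11 mitosis, 8 replication and 6 G1 windows, against 37.4% of all, and the CHR and the CCAAT box stood together in 10 of the 13 mitosis windows and in 7.52% of all. These matches are strings in a window and no measured binding. Here 2 replication promoters are shown with the E2F element in capitals and 2 mitotic promoters with the CHR in capitals, because all 4 were called lower over the course; each is written 5′ to 3′ on the gene's strand.
Mcm5, chr8:75109259-75109558, plus strand: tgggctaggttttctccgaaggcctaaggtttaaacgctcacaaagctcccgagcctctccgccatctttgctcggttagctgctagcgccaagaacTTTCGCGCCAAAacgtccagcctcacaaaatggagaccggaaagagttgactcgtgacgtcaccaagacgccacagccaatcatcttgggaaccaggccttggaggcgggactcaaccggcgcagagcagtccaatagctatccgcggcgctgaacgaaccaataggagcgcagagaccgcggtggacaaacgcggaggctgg
Mcm6, chr1:128359656-128359955, minus strand: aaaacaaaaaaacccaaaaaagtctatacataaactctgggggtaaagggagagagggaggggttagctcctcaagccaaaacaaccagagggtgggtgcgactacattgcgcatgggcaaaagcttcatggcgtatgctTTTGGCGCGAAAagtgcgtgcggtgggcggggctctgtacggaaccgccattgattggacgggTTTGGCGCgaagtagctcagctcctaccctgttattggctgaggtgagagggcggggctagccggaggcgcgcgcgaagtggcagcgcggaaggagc
Cdk1, chr10:69352863-69353162, minus strand: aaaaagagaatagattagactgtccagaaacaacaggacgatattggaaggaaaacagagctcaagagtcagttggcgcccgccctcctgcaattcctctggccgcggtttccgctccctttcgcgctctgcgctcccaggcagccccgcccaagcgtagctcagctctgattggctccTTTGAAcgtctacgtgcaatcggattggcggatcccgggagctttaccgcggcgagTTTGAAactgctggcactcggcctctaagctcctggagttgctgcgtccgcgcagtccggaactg
Ccnb2, chr9:70421505-70421804, minus strand: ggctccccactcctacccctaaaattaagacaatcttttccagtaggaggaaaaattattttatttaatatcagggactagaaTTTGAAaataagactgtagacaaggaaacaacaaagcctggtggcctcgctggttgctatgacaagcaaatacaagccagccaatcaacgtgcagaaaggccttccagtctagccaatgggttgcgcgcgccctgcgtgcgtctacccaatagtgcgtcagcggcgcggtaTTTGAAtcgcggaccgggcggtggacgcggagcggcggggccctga

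The values are log2 of the processed spot signal minus the 75th percentile of the array, called the level here, so a level of 0 is the signal of the 75th percentile spot. Between 62.0% and 65.9% of spots on an array were well above background, 0 were saturated, and repeated spots of a probe had a standard deviation of 0.0679 to 0.0824. Steps were tested over both lines (n = 2 arrays per state) and the lines over the states (n = 3 arrays per line) in 1 limma fit, with Benjamini-Hochberg adjustment over all 13381 genes, and called at an adjusted p under 0.05. The 2 steps share the aggregated arrays and the whole course shares its arrays with both. Nothing in the labels says that arrays came from separate cultures, so the p-values measure only the variation between these samples, which may be technical. The median of all genes tested was -0.27 at the aggregation step, -0.10 at the replating step and -0.42 over the whole course, so shifts of a group are given beside these. Pluripotency markers were looked at as a check of the states. Pou5f1, the stem cell factor Oct4, had levels of 6.37 and 6.48 in undifferentiated vector and AICD cells. In aggregates it was at -2.36 in the vector line but 3.23 in the AICD line, and after replating at -0.61 and 3.26. Tdgf1, Utf1 and Lin28a also changed on aggregation, by -5.3, -5.0 and -6.2. Dppa5a changed by -0.26, near the -0.27 of all genes. On replating Lin28a rose by 2.64 in the AICD line. The summed linear level of 10 neuronal markers was 13.5 and 15 undifferentiated, 50.9 and 78.8 aggregated and 196 and 146 differentiated, in the vector and AICD line. App itself, on 1 probe, had levels of -0.46 and -0.21, 1.46 and 0.96, and 2.88 and 2.05 in the same order. App was thus not higher in the AICD line in the later states, and where this probe lies relative to the expressed domain was not examined, so it checks no label.

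**Figure D1:**
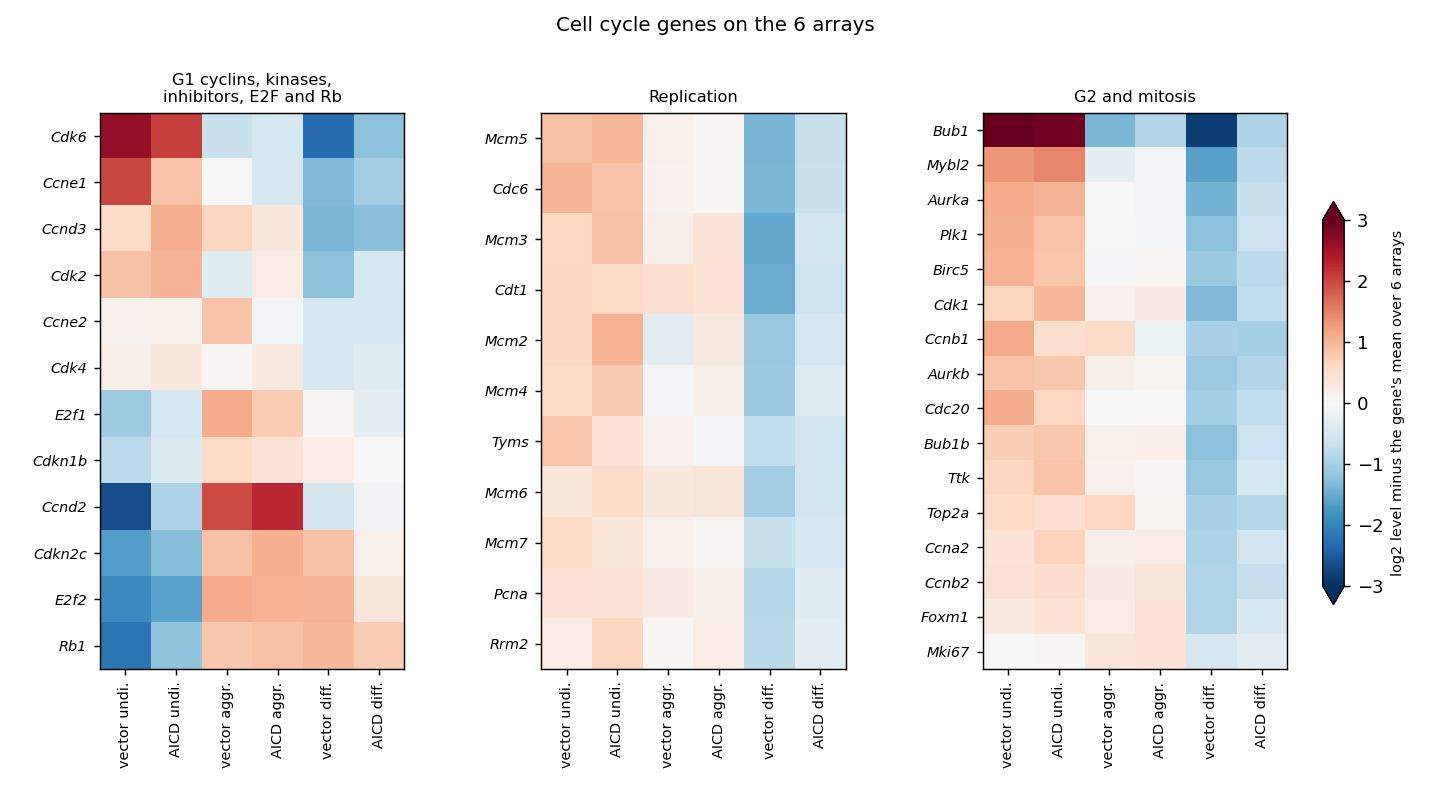
Level of 39 genes on the 6 arrays, in 3 panels by role; colour gives the log2 level minus the gene's mean over the arrays, capped at 3 in both directions, and each column is 1 array of the vector or AICD line. In the replication panel all 11 genes are lowest on the vector differentiated array, while the G1 panel holds genes that go both ways, from Cdk6 at the top to Rb1 at the bottom.

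Every measured replication gene fell over the whole course. All 11 were called lower, 31 of the 39 genes of all 3 groups were called lower and 4 higher, where 40.4% and 20.3% of all genes tested were called lower and higher. The median change of the replication genes was -1.43, against -0.42 for all genes. At least 2-fold lower in both lines were 26 of the 39 genes (8 replication, 14 mitosis and 4 G1 genes), where 21.1% of detected genes were. In bulk RNA, fewer cycling cells and less RNA of these genes per cell cannot be told apart. Mcm2, a subunit of the helicase that opens DNA at origins, had levels of 3.88 and 4.28 in undifferentiated vector and AICD cells, 2.93 and 3.52 in aggregates and 2.11 and 2.74 after replating. Its states did not overlap, and it fell by 1.65 ± 0.15 over the course (log2 change ± limma standard error; adjusted p = 0.00719), or 3.15-fold. It alone among the 11 was also called at the aggregation step, where it fell by 0.86 ± 0.15 (adjusted p = 0.0238).

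The helicase subunit Mcm5 had levels of 5.58 and 5.69, then 4.86 and 4.77, then 3.32 and 4.00, which put its E2F-bearing promoter beside a 3.93-fold fall (-1.98 ± 0.24, adjusted p = 0.0083). Mcm6, with 3 E2F matches in its window, had similar levels before and after aggregation (6.36 and 6.56, then 6.33 and 6.38) and stood at 4.95 and 5.45 after replating. Its course change was -1.26 ± 0.18 (adjusted p = 0.00988). Cdc6, which loads the helicase, went from 2.51 and 2.36 through 1.62 and 1.54 to 0.13 and 0.84, a fall of 3.87-fold (adjusted p = 0.00967); a second probe gave -1.18 in place of -1.95. Its partner Cdt1 was at 5.85 and 5.79 undifferentiated and at 5.70 and 5.64 in aggregates, and only the replated arrays were low, at 3.73 and 4.58 (-1.66 ± 0.30 over the course, adjusted p = 0.0138). Mcm3, Mcm4 and Mcm7 fell by 1.79, 1.43 and 1.05, with adjusted p between 0.00967 and 0.0126. The sliding clamp Pcna fell 2.04-fold, from 5.73 and 5.70 to 4.46 and 4.91 (adjusted p = 0.0163). Of the makers of DNA precursors, ribonucleotide reductase Rrm2 fell 2.02-fold and thymidylate synthase Tyms 2.47-fold (adjusted p = 0.0124 and 0.0106).

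At the steps the replication genes had these values, with no test of one step against the other. On aggregation their median was -0.46, near the -0.27 of all genes, 1 of 11 was called lower and 5 of 11 had an unadjusted limma p under 0.05, where 35.3% of all genes were lower by that measure. There with quantile normalization 4 of the 11 were above 0 (Mcm6, Mcm7, Pcna and Cdt1). On replating the median was -0.84 against -0.10, 0 were called by limma, and 11 of 11 were lower at an unadjusted p under 0.05, where 18.6% of all genes were. All 11 were below 0 in each line, where 56.8% of detected genes were in the vector and 59.6% in the AICD line. With the 75th percentile scaling the level of all 11 went down at both steps in each line. So did that of 14 of 16 mitosis and 4 of 12 G1 genes. These were 29 of the 39 in all, where 31.8% of genes detected throughout did so. The count depended on the scaling at the aggregation step. With quantile normalization 6 of the 11 replication genes were below 0 there in vector cells, and 7 in AICD cells. Of the 16 mitosis genes 11 and 13 were.

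**Figure D2:**
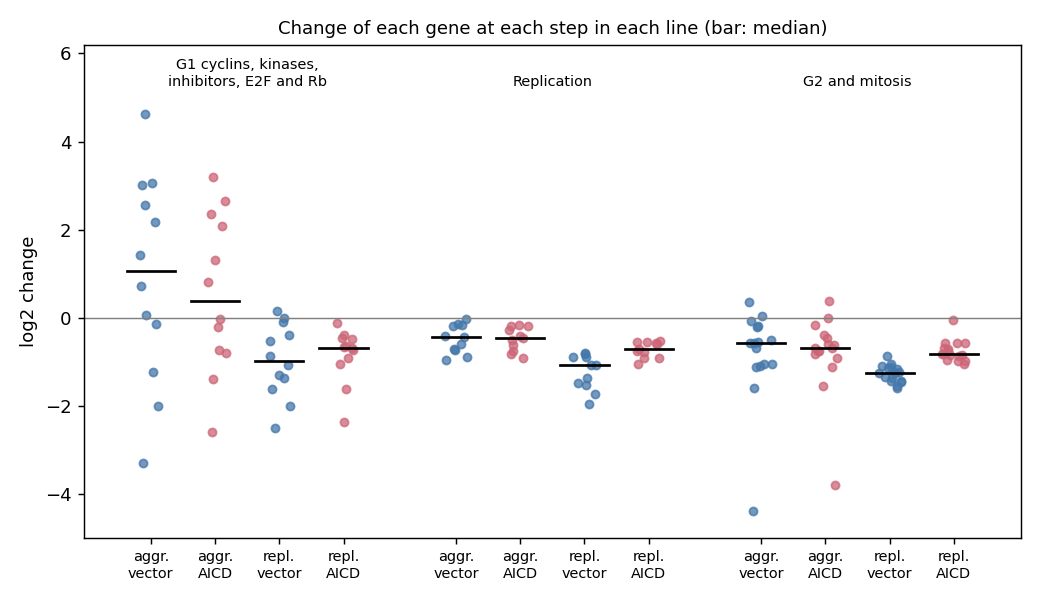
Log2 change of each of 39 genes at the aggregation step (aggr.) and the replating step (repl.), in the vector line in blue and the AICD line in red, by role; each point is 1 gene from 1 pair of arrays and bars are medians. At the replating step the median of the replication genes is -1.09 for vector and -0.70 for AICD cells, and that of the mitosis genes -1.26 and -0.82.

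Genes of G2 and mitosis also fell over the course, 15 of 16 by the test, with a median of -1.79. The exception was Mki67, the source of the Ki-67 proliferation antigen. It had levels of 4.94 and 4.97 undifferentiated, 5.30 and 5.35 in aggregates and 4.44 and 4.63 after replating, so its aggregates were the highest arrays. Its course change was -0.42 ± 0.15 (adjusted p = 0.0689) and turned to 0.24 with quantile normalization, so its direction is not settled. Mybl2, the B-Myb factor that drives mitotic promoters, had a lower level at each stage in both lines: 2.66 and 2.82, then 1.07 and 1.28, then -0.28 and 0.58. It changed by -1.57 ± 0.24 on aggregation (adjusted p = 0.0186) and by -2.60 ± 0.24 over the course (adjusted p = 0.00716), 6.04-fold in all. Foxm1, the other activator of these promoters, had similar levels before and after aggregation (1.77 and 1.88, then 1.68 and 1.87) and was at 0.57 and 1.01 after replating, a course change of -1.03 ± 0.17 (adjusted p = 0.0115).

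Cdk1, the kinase that drives entry into mitosis and carries CHR and CCAAT strings in its promoter, had levels of 3.44 and 3.76, 2.90 and 3.02, and 1.45 and 2.03. It fell 3.64-fold (adjusted p = 0.00734). Its cyclins Ccnb1 and Ccnb2 fell 3.53-fold and 2.43-fold (adjusted p = 0.0088 and 0.00789), and Ccna2, the cyclin of S and G2 phase, 2.49-fold (adjusted p = 0.00842). Levels of Ccnb2 were 5.09 and 5.18, 4.90 and 5.02, and 3.74 and 3.97, so that only the replated arrays were low. Top2a, which untangles DNA before division, was also lowest after replating, at 2.84 and 2.76, 2.88 and 2.35, and 1.27 and 1.39 (adjusted p = 0.0101 over the course). Its second probe changed by -0.44 in vector and -0.66 in AICD cells on aggregation. Over the course that probe gave -2.02 in place of -1.47.

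Among the mitotic kinases, Aurka stood at 5.73 and 5.65, 4.64 and 4.53, and 3.20 and 3.95, and fell 2.15-fold on aggregation (adjusted p = 0.0446) and 4.33-fold over the course (adjusted p = 0.00893). Plk1, a kinase of spindle assembly, fell 1.97-fold on aggregation (adjusted p = 0.0474), Aurkb 1.62-fold (adjusted p = 0.0368) and its complex partner Birc5, survivin, 1.88-fold (adjusted p = 0.0322). Over the course these 3 fell by 1.89, 1.82 and 1.89. Cdc20, which activates the anaphase-promoting complex, and the spindle checkpoint kinases Ttk and Bub1b fell by 1.76, 1.59 and 1.71 over the course, with adjusted p between 0.00805 and 0.00974. None of these 3 passed the test on aggregation, where adjusted p lay between 0.0598 and 0.0801.

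Bub1, another spindle checkpoint kinase, depended on the probe. On the brighter probe, of transcript NM_001113179, it had the largest fall of all 39 genes: 6.50 and 6.39 undifferentiated, 2.10 and 2.59 in aggregates and 0.64 and 2.54 after replating. That is -4.10 ± 0.53 on aggregation (adjusted p = 0.0155) and -4.85 ± 0.53 over the course (adjusted p = 0.00773). The second probe, of transcript NM_009772, read 3.31 and 3.31, 2.88 and 2.68, and 1.38 and 1.83, a mean change of -0.53 on aggregation and -1.70 over the course. On both probes the undifferentiated arrays were highest and the replated vector array lowest, but they disagree on the size of the first step.

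**Figure D3:**
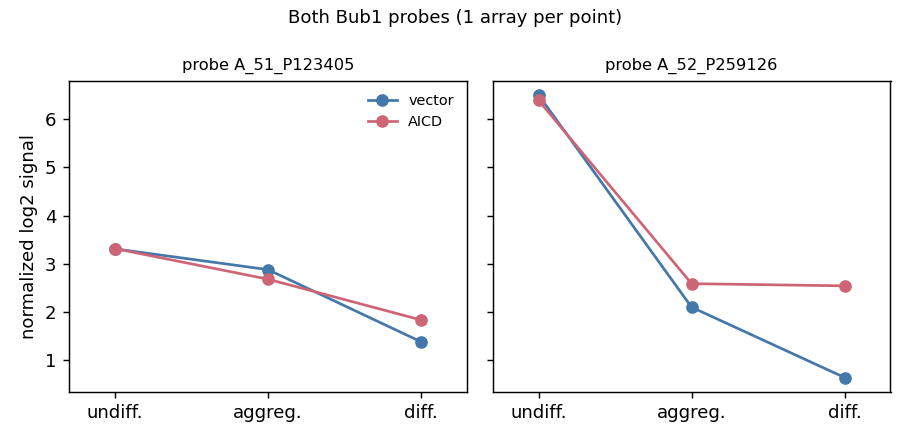
Levels of Bub1 on its 2 probes in the 3 states, 1 array per point, vector line in blue and AICD line in red, on a shared log2 axis. Probe A_52_P259126 drops from 6.50 and 6.39 to 2.10 and 2.59 on aggregation, while probe A_51_P123405 drops from 3.31 and 3.31 to 2.88 and 2.68.

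The G1 genes went both ways, mostly on aggregation. At that step 6 of the 12 measured were called higher and 3 lower, and of all 39 genes 6 were higher and 10 lower, where 14.8% and 26.1% of all genes were called. Over the course 4 of the 12 were called higher and 5 lower, where 20.3% and 40.4% of all genes were. The lower count was thus near the share of all genes. The median of the G1 genes was 0.01 against -0.42 for all genes. Ccnd2, the D-type cyclin 2, had levels of 0.47 and 2.21 undifferentiated, 5.09 and 5.39 in aggregates and 2.58 and 3.02 after replating. The aggregates were above all other arrays, and the rise of 3.91 ± 0.42 was 15-fold (adjusted p = 0.0135). On replating it changed by -2.44 ± 0.42 (adjusted p = 0.0755), which left a course rise of 1.46 (adjusted p = 0.0428); its 3 probes gave 3.86 to 3.95 for the first step. Ccnd3, the D-type cyclin 3, had similar levels before and after aggregation (3.54 and 4.05, then 3.60 and 3.31) and was at 1.58 and 1.70 after replating, a course fall of 4.44-fold (adjusted p = 0.00784).

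Cdk6, a partner of the D cyclins, fell 7.72-fold on aggregation (adjusted p = 0.0177) and 17.2-fold over the course (adjusted p = 0.00759). Its levels were -0.31 and -0.88, -3.61 and -3.48, and -5.23 and -4.17, with no overlap between states. Its second probe, not well above background on the later arrays, gave -2.31 over the course in place of -4.10. Cdk4, the other partner, moved less, from 4.53 and 4.66 through 4.39 and 4.63 to 3.87 and 3.99 (-0.67 ± 0.14 over the course, adjusted p = 0.0214). Ccne1, cyclin E1, went from 5.65 and 4.52 to 3.65 and 3.12 and then to 2.34 and 2.64. It fell 3.24-fold on aggregation (adjusted p = 0.0358) and 6.03-fold in all (adjusted p = 0.0102). Its kinase Cdk2 fell 2.03-fold on aggregation and 3.53-fold in all (adjusted p = 0.0291 and 0.00785), with a second probe at -0.15 and -0.87 in place of -1.02 and -1.82. Ccne2, cyclin E2, passed in no comparison, at -2.20 and -2.18, -1.48 and -2.40, and -2.85 and -2.87.

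The inhibitors and the E2F and Rb genes were higher from aggregation on. Rb1, the retinoblastoma protein that holds E2F in check, rose 5.83-fold on aggregation (adjusted p = 0.0159). It was at -2.60 and -1.62, then 0.40 and 0.47, then 0.56 and 0.36. Cdkn2c, the p18 inhibitor of Cdk4 and Cdk6, rose 5.52-fold (adjusted p = 0.0159), with levels of -2.84 and -2.45, -0.27 and -0.09, and -0.28 and -1.02. Cdkn1b, the p27 inhibitor, rose 2.16-fold on aggregation (adjusted p = 0.0295) from -0.46 and -0.06 to 0.96 and 0.75, and over the course its change of 0.73 ± 0.23 missed the threshold (adjusted p = 0.0526). E2f2, an activating E2F, rose 7.20-fold on aggregation (adjusted p = 0.0129) and was still 5.50-fold higher after replating (adjusted p = 0.00792), at -0.40 and -0.06, 2.65 and 2.59, and 2.55 and 1.91. E2f1 rose 3.35-fold on aggregation (adjusted p = 0.0202), from -0.21 and 0.33 to 1.97 and 1.64, and stood at 0.90 and 0.59 after replating (adjusted p = 0.105 over the course). Second probes gave 1.21 in place of 0.68 over the course for E2f1 and 0.26 in place of 0.73 for Cdkn1b, and a second Rb1 probe was too dim to keep. E2f1 and E2f2 rose on aggregation. The 6 replication genes with E2F strings in their windows had changes between -0.85 and -0.11 there, none of which passed the test. A link between these changes was not tested, and E2f3 belongs to a wider list described below.

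**Figure D4:**
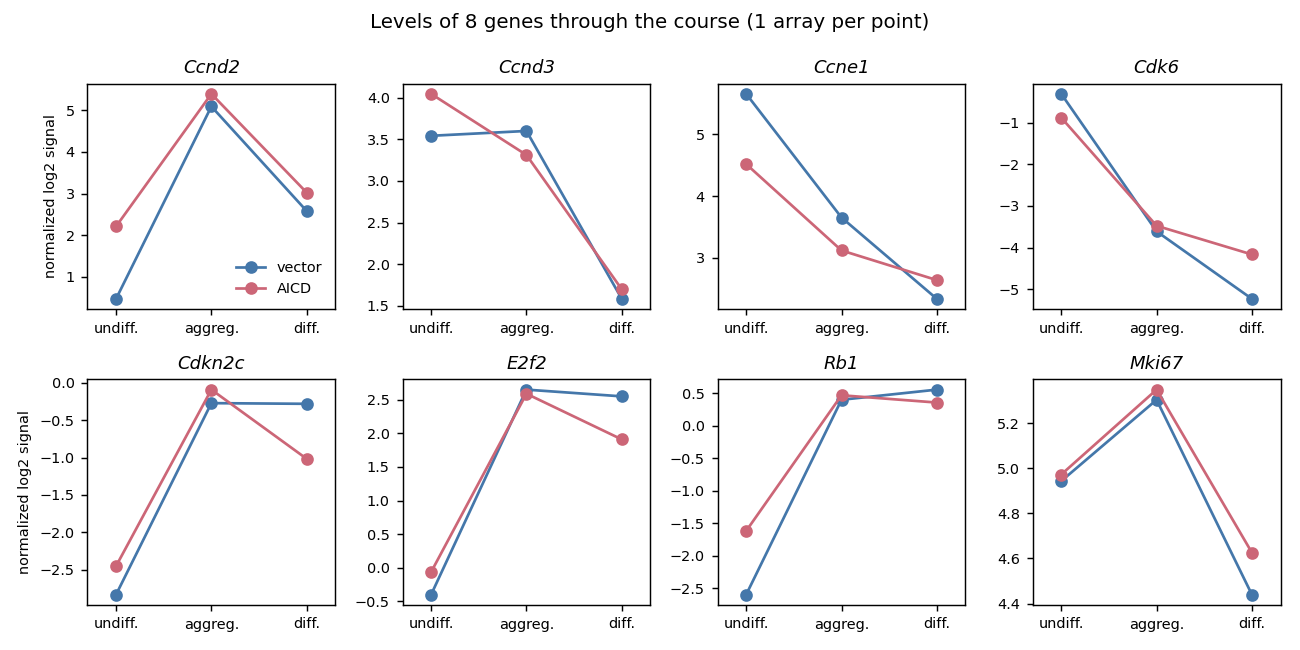
Levels (log2 of the signal over the 75th percentile of the array) of 8 genes in the 3 states, 1 array per point, vector line in blue and AICD line in red; each panel has its own axis. Ccnd2 peaks in the aggregates at 5.09 and 5.39, Ccnd3 is low only after replating, Rb1, Cdkn2c and E2f2 are high from aggregation on, and Cdk6 and Ccne1 go down throughout.

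These calls rest on few arrays. With quantile normalization 5 genes in place of 10 were called lower on aggregation, where 20.1% in place of 26.1% of all genes were. Without the vector undifferentiated array the aggregation step had 3 higher genes (Ccnd2, E2f2 and Rb1) and 0 lower by limma, where 3.66% and 3.92% of all genes were called. Without either aggregated array it had 0 and 0, as did all genes (0.0%). Unadjusted counts with all arrays were 6 higher and 18 lower, against 19.4% and 35.3% of all genes. Without the vector differentiated array 3 genes were called lower over the course (Bub1, Cdk6 and Mybl2) and 0 higher, where 2.68% and 3.84% of all genes were; without the vector undifferentiated array 2 were higher (E2f2 and Rb1) and 25 lower, where 12.7% and 20.1% of all genes were.

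The wider machinery of each phase was taken as 6 lists beside the 40 genes, and is set against the 40.4% of all genes called lower and 20.3% called higher over the course. Of genes for origin recognition and firing 15 of 17 measured were called lower and 0 higher, with Orc1, a subunit of the origin recognition complex, at -2.64 and Mcm10 at -2.21. All 20 genes of polymerases and the fork were called lower, from -0.80 for Rfc2 to -2.04 for Pole2, a subunit of polymerase epsilon. Of the suppliers of nucleotides and chromatin 9 of 10 were lower, among them the dUTPase Dut, which fell by 1.62. Of kinetochore, spindle and cytokinesis genes 27 of 30 were lower, led by Pttg1, securin, at -2.23 and Ect2, an activator of cytokinesis, at -1.99. The list of other E2F, pocket and DREAM genes had 9 of 15 lower and 1 higher: E2f4 changed by -2.44, and Rbl2, the p130 pocket protein of resting cells, by 3.46. The other regulators of cyclin-dependent kinases had 10 of 15 lower, among them Cks1b (-2.12) and Cks2 (-2.07), and 1 higher, Ccng2, a cyclin G linked to cell cycle arrest, at 3.77. Rbl2 was not well above background on 1 of the 6 arrays, so its size there rests partly on a dim signal. The medians of the 6 lists over the course lay between -0.81 and -1.37. On aggregation, where 26.1% of all genes were called lower and 14.8% higher, the lower genes were 6 of 17 origin, 2 of 20 polymerase and fork, 1 of 10 nucleotide and chromatin and 3 of 30 kinetochore genes, 6 of 15 other kinase regulators (and 1 higher, Ccng2) and 1 of 15 in the E2F and pocket list (and 3 higher, Rbl2 and Rbl1 among them). On replating limma called 0 in each list, and 12 of 17, 20 of 20, 9 of 10, 8 of 15, 7 of 15 and 29 of 30, in the order of the origin, polymerase, nucleotide, E2F, kinase regulator and kinetochore lists, were lower at an unadjusted p under 0.05, against 18.6% of all genes.

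At the replating step 0 of the 39 genes were called by limma in either direction, as were 0.0% of all genes, while 32 had an unadjusted p under 0.05, all lower, against 18.6% lower and 14.3% higher of all genes. The lowest adjusted p was 0.0692, of Ccnb2. The median change was -0.97 against -0.10 for all genes. With normexp background correction 17 of the 39 were called lower, where 5.67% of all genes were, and with only genes detected on all 6 arrays 9 were, where 3.12% were. In vector cells 28 of 39 genes were at least 2-fold lower after replating, where 11.5% of detected genes were. In AICD cells 5 were, where 4.69% were. The medians were -1.24 and -0.72. The difference between the lines in this step was not tested, as each value comes from 1 pair of arrays. The 5 genes in the AICD line were Ccnd2 (-2.37), Ccnd3 (-1.61), Cdt1 (-1.05), Ccnb2 (-1.05) and E2f1 (-1.05).

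Between the lines, replication and mitosis genes had their highest median differences after replating and the G1 genes before differentiation. In differentiated cells 32 of 39 genes had a higher level in the AICD line, where 50.6% of detected genes did, with a median difference (AICD minus vector) of 0.44 against 0.01 for all genes. All 11 replication genes were higher, with a median of 0.63, and 15 of 16 mitosis genes, with a median of 0.40, whereas 6 of 12 G1 genes were. The highest were Bub1 (1.90), Cdk6 (1.07), Mcm3 (0.999, from 1.08 in vector to 2.08 in AICD cells), Mybl2 (0.86) and Cdt1 (0.85). The lowest were Cdkn2c (-0.74), E2f2 (-0.64), E2f1 (-0.31), Cdkn1b (-0.21) and Rb1 (-0.20), the inhibitor, E2F and Rb genes among the 39. The values of Cdkn1b and Rb1 were smaller than 0.233, a bound from the spread of repeated spots. Inhibitors outside this set went both ways, with Cdkn1a at 1.15 and Cdkn1c at -1.12. On its second probe Bub1 was at 1.38 in vector and 1.83 in AICD cells. The second Cdk6 probe was lower in AICD cells, at -7.04 in vector and -7.37 in AICD cells. It was not well above background on either array. At least 2-fold differences numbered 2 higher, Bub1 and Cdk6, and 0 lower, where 4.55% and 4.0% of detected genes were. These are differences of 1 array against 1, without a test, and they share the vector differentiated array with the larger replating drop of that line.

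In aggregates the median difference was 0.04 (-0.04 with quantile normalization), with 21 of 39 genes higher in the AICD line where 53.2% of detected genes were, and 0 genes at least 2-fold apart, where 4.21% of detected genes were higher and 3.12% lower. The highest were Mcm2 (0.59), Cdk2 (0.58), Bub1 (0.49), Ccnd2 (0.30) and Cdk4 (0.23). The lowest were Ccne2 (-0.92), Ccnb1 (-0.77), Ccne1 (-0.53), Top2a (-0.52) and E2f1 (-0.34). Second probes went the other way for Cdk2 (-0.10) and Bub1 (-0.20). In undifferentiated cells the median was 0.11, with 24 of 39 higher where 43.8% of detected genes were, and 1 gene at least 2-fold higher and 1 lower (Ccnd2 and Ccne1), where 4.27% and 4.09% were. Of the G1 genes 10 of 12 were higher there, with a median of 0.36. There Ccnd2 was 1.74 higher in the AICD line, followed by Rb1 (0.98), E2f1 (0.54), Ccnd3 (0.50) and Rrm2 (0.42), and Ccne1 was lowest at -1.13, followed by Ccnb1 (-0.66), Cdk6 (-0.57), Cdc20 (-0.51) and Tyms (-0.42). Before differentiation the G1 genes thus ranged from -1.13 to 1.74 between the lines and the replication genes from -0.42 to 0.42.

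Markers of several cell types differed between the lines after replating. The 5 measured pluripotency markers had a summed linear level of 1.31 in vector and 12.0 in AICD cells. That AICD sum rests mostly on Pou5f1 (3.26) and Lin28a (1.04), which were at -0.61 and -2.03 in vector cells. Tdgf1 and Utf1 were also higher in AICD cells, and Dppa5a was lower. Tdgf1 was not well above background in vector cells. The median level of the 5 was -2.03 in vector and -2.30 in AICD cells. The 10 neuronal markers summed to 196 and 146, and the 7 mesenchymal markers to 31.4 and 0.573. Of the latter, Col1a1, Pdgfrb and Thy1 were not well above background in AICD cells. The 7 markers of neural progenitors, a dividing cell type, summed to 186 and 126. Of these, Hes5 was at 5.84 in vector and -5.45 in AICD cells, and Fabp7 was also lower in AICD cells (5.96 and 5.64). Sox1 (-2.99 and -1.82), Sox2 (1.91 and 2.48), Nes (3.15 and 3.86) and Pax6 (-1.10 and -0.24) were higher in AICD cells. Vim was similar (5.72 and 5.79). The part of these markers in the cell cycle differences was not tested. The 4 glial, 4 endodermal and 4 muscle markers measured summed to 9.0 and 11.4, 0.253 and 0.361, and 5.33 and 1.68 in differentiated vector and AICD cells.

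**Figure D5:**
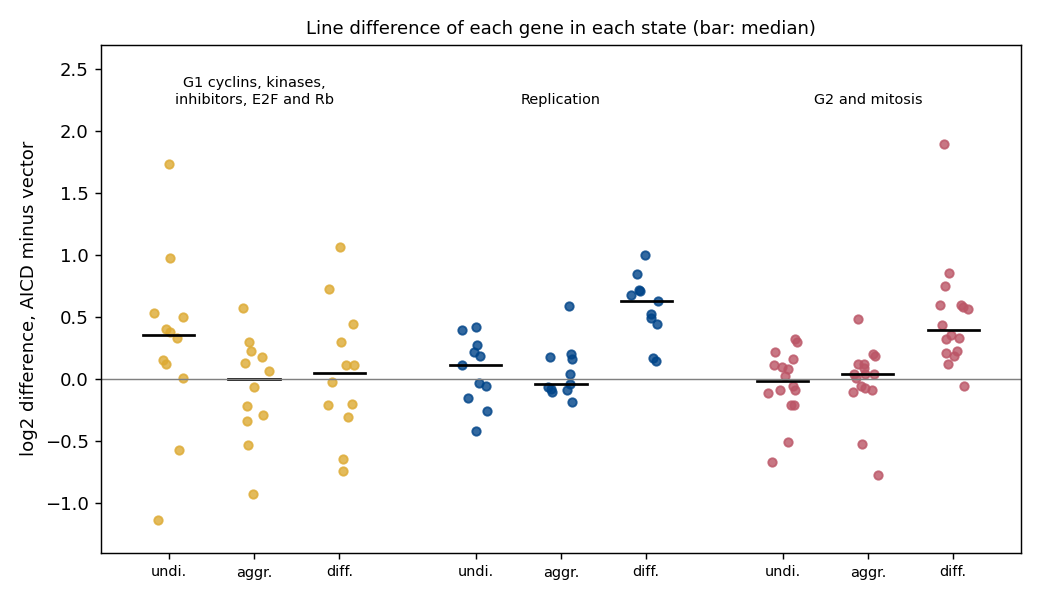
Log2 difference AICD minus vector of each of 39 genes in the undifferentiated (undi.), aggregated (aggr.) and differentiated (diff.) state, by role; each point is 1 gene, from 1 array per line, and bars are medians. The 11 replication genes lie above 0 in the differentiated state, between 0.15 and 0.999, and spread around 0 in the other states.

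Over the 3 states together 0 of 39 genes were called between the lines by limma in either direction, where 0.209% and 0.142% of all genes were called higher and lower. Unadjusted, 2 genes had p under 0.05, Mcm2 and Cdk2, both higher in the AICD line, where 5.99% of all genes were. Mcm2 had the lowest adjusted p, 0.241, with a difference of 0.54 ± 0.13 that was 0.40, 0.59 and 0.63 in the 3 states. Cdk2 was 0.15, 0.58 and 0.73 higher (adjusted p = 0.383). Its second probe gave 0.38, -0.10 and 0.78, so its direction in aggregates depended on the probe. With the 75th percentile scaling 15 of 39 genes had a level above the vector line in all 3 states, where 16.9% of detected genes did. Among them were Mcm2, Mcm3, Mcm4, Mcm6, Cdk1, Ccna2, Ccnb2 and Mybl2. The count depended on the scaling. In aggregates the Mcm6 difference of 0.046 turned to -0.025 with normexp and -0.097 with quantile normalization. That of Mki67, also among the 15, turned from 0.045 to -0.007 and -0.032. Ccnb1 alone was below the vector line in all 3 states, by -0.66, -0.77 and -0.05, where 18.6% of detected genes were. One of its other probes was at 0.035 in the differentiated state.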

How the data were processed

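Total RNA of 6 samples was labelled with Cy3 and hybridised to 6 Agilent single-colour arrays. Per the file headers, the authors read each scan with Agilent Feature Extraction 10.1.1.1 on a grid of genome build mm9, and the deposited processed signal is an intensity after background subtraction and detrending, not scaled between arrays. The authors' deposited value table, a score whose scale is not stated, was not used. No transcript abundance per length can be had from these probes, so levels are compared within a probe only.

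Here control spots (1639 of 45018) were left out, spots of a probe were averaged, and symbols were looked up by RefSeq accession (GRCm38.p6): 24844 of 41174 had a symbol (17178 genes), and 27 lacked a value on an array. The log2 signal minus the 75th percentile of the array was taken. Probes well above background on at least 2 arrays were kept (28459), and the brightest probe stood for a gene with several (4761 genes). limma 3.58.1 in R 4.3.3 was fitted with state and line as terms (2 residual degrees of freedom, prior 2.04) and tested two-sided; its error is how much the gap between the lines varied from state to state. The script was tested on simulated data. Single pairs of arrays have no test and are counted at 2-fold among genes well above background on both. Alternatives were normexp (offset 50, on median spot signals, as mean signals were not among the columns), quantile normalization, both other filters on dim probes, the mean of a gene's probes, leaving out each array, the second slide alone, and, added after the data were seen, scaling to the median.

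The genes, lists and tests were chosen with earlier results of these data known. By the rule for names any of the 40 genes may be named, and per list up to 2 called genes per direction with the largest change. App, Pou5f1 and the marker lists serve as checks. The number of arrays limits the precision.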

Additional observations from a re-analysis of the deposited data

Results flagged for a closer look

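Of the 39 genes, 7 had a difference between the lines (AICD minus vector, log2) that was positive in 1 state and negative in another, each by more than 0.233, a bound from the spread of repeated spots. None of these differences between states was tested, since each value is 1 array against 1. Among the cyclins, Ccne1 was at -1.13 in the undifferentiated and -0.53 in the aggregated state against 0.30 in the differentiated state, and Ccnd3 at 0.50 undifferentiated against -0.29 aggregated. Cdk6 went from -0.57 undifferentiated to 1.07 differentiated, and its inhibitor gene Cdkn2c the other way, from 0.38 to -0.74. The second Cdk6 probe did not change sign, at -0.54 undifferentiated and -0.32 differentiated. It was not well above background on the differentiated arrays. E2f1 was at 0.54 undifferentiated against -0.34 aggregated and -0.31 differentiated, and E2f2 at 0.34 undifferentiated against -0.64 differentiated. Cdc20, the 1 mitotic gene in this group, was at -0.51 undifferentiated against 0.32 differentiated. Of the 7, 6 are G1 genes and 0 are replication genes. The share of all genes tested that meet this rule was not counted, so these counts show no trait of the G1 group. The bound covers spots within an array and not variation between arrays.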

How the results depend on the processing

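Quantile normalization moved the median of all genes from -0.27 to -0.12 on aggregation and from -0.42 to -0.24 over the course. With it 5 of the 39 genes were called lower on aggregation in place of 10, where 20.1% in place of 26.1% of all genes were. Their median there was -0.17, and the course median was -1.02. On replating, 17 genes were called lower with normexp and 9 with genes detected on all 6 arrays, in place of 0, where 5.67% and 3.12% of all genes were. The median line difference in aggregates turned from 0.040 to -0.025 with normexp and -0.044 with quantile normalization. Leaving out 1 array at a time, which leaves 1 residual degree of freedom, gave 0 to 6 higher and 0 to 10 lower genes on aggregation with medians of -0.64 to -0.33, and 0 to 6 higher and 3 to 30 lower over the course with medians of -1.72 to -1.26; the lone array of a state is then assumed to vary like the others. The line difference and the replating step kept 0 calls under each array left out and within the second slide. On aggregation and over the course, leaving out any 1 array also lowered the share of all genes called, in each direction. A drop in the counts of the 39 genes there is thus not particular to them. Scaling to the median kept the counts of 6 and 10 on aggregation and 4 and 31 over the course. In the differentiated state all 11 replication genes were higher in the AICD line under the 75th percentile, normexp, quantile and median scaling alike. No paired analysis was possible because the labels give no replicate numbers, beyond the pairing of the 2 lines within a state that the fit already holds. The limits are 1 array per line and state and the undifferentiated arrays alone on their slide.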

Other observations

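Some regulators outside the 40 genes stood apart between the lines, and these were picked after their values were seen. Cdkn1c, the p57 inhibitor, had levels of -4.32 in vector and -2.78 in AICD cells undifferentiated, -3.83 and -1.10 in aggregates and -3.66 and -4.78 after replating, so it was 6.64-fold higher in AICD aggregates and 2.17-fold lower in AICD cells afterwards. Cdkn1a, the p21 inhibitor, was higher in the AICD line in each state, by 0.47, 1.34 and 1.15. Cdc25b, a phosphatase that activates Cdk1, was lower in the AICD line in each state, at 4.36 against 2.21, 4.56 against 3.74 and 3.28 against 2.53. None of these was called between the lines over the 3 states, and each difference within a state is 1 array against 1.

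After replating, 50.6% of all detected genes had a higher level in the AICD line. All 30 kinetochore, spindle and cytokinesis genes were higher in it, with a median of 0.32, as were 19 of 20 polymerase and fork genes (0.47) 15 of 17 origin genes (0.47), 9 of 10 nucleotide and chromatin genes (0.32) and 12 of 15 of the other E2F, pocket and DREAM genes (0.31). The other kinase regulators had 9 of 15 higher and a median of 0.10, near the share of all genes. Orc1 was 1.40 higher, at -2.38 in vector and -0.98 in AICD cells. In aggregates, where 53.2% of all detected genes were higher, the kinetochore, polymerase, origin, nucleotide, E2F and regulator lists had 7 of 30, 9 of 20, 8 of 17, 3 of 10, 7 of 15 and 7 of 15 genes higher.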
